A study of Mus musculus with 24 samples.

Results

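A group of 56 genes had lower mean RNA levels with β-NMN (nicotinamide mononucleotide, a precursor of NAD+) than with vehicle in stimulated peritoneal cells, in septic heart and in septic lung. They were picked from 10031 genes with a mean of at least 1 CPM (the count of a gene scaled to a fixed total per library) in each of the 3 tissues, out of 54658 gene symbols counted. The measure was the log2 ratio of the mean CPM of the β-NMN group to that of the vehicle group, each plus 0.5. A member had a ratio of at most -1 in peritoneal cells, -0.5 in heart and -0.5 in lung. Because these ratios chose the genes, they are given here as a description, without a test, and the counts of members called in these contrasts carry no weight of their own.

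The mice were male C57BL/6 animals of 7 to 12 weeks. For the first experiment, cells were drawn to the peritoneum by Brewer thioglycollate medium (TGC), and the exudate cells of 6 vehicle and 6 β-NMN mice were exposed ex vivo to E. coli for 6 h. The other experiment used cecal ligation and puncture (CLP), a surgical model of polymicrobial sepsis, and heart and lung were taken 24 h later from the same 3 vehicle and 3 β-NMN mice. β-NMN was injected intraperitoneally at 185 mg/kg/day and vehicle mice received 0.9% NaCl. In the TGC experiment doses were given daily for 3 days, the first together with TGC. The CLP organs were taken after only 1 dose, given right after surgery. In both experiments the last dose came 24 h before sacrifice. All of these samples were thus challenged, and levels without inflammation were not analysed here. The source labels of the CLP organs name thioglycollate peritonitis, while titles, tissues and methods give CLP, and 1 of a pair of β-NMN hearts labelled replicate 3 was taken as replicate 2 because its animal code matches that of lung replicate 2.

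Bacterial products that reach Toll-like receptors switch on a stereotyped program in phagocytes, in which immediate early transcription factors come first and cytokines, chemokines and acute phase proteins follow. Fibroblasts, endothelium and epithelium run much of the same program when cytokines reach them, so that a local infection can alter gene expression in distant organs. NF-kappaB, AP-1 and C/EBP factors drive many of these genes, and cells under this load also turn on cystine uptake, thioredoxin reduction and metal transport.

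Library totals ran from 31.1 to 112 M counts in peritoneal cells, 27.3 to 68.5 M in heart and 8.92 to 28.4 M in lung. Markers of the labelled tissues were present: the summed CPM of 10 monocyte and macrophage markers was 7384 to 14341 in peritoneal cells, that of 7 cardiomyocyte markers 42351 to 54015 in heart and that of 7 epithelial markers 63522 to 102149 in lung. CLP vehicle mouse 2 stood apart in both organs. The SD of its log2 difference from its group over genes was 0.63 in heart, against 0.23 to 0.40 in the other hearts, and 1.21 in lung, against 0.32 to 0.70. Its lung had the lowest total and the lowest sum of macrophage markers (1194, against 4325 to 5705 in the other lungs), and its heart had the lowest share of mitochondrial counts (12.9%, against 18.2% to 22.7%). The lung of this mouse also had the highest sum of 5 erythroid markers (9214, against 2096 to 4274 in the other lungs). Ratios without this mouse are therefore given beside many of the organ values.

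If passing the 3 thresholds were independent between tissues, 9.22 genes would be expected, and 56 were counted. The threshold was passed by 8.51% of the 10031 genes in peritoneal cells, 15.7% in heart and 6.87% in lung. Heart and lung came from the same mice, so those 2 contrasts are not independent by design: they shared 225 genes where the product of the shares gives 108. Peritoneal cells, from other mice, shared 336 genes with heart (134 from the product) and 83 with lung (58.7 from the product). In the opposite direction, 6 genes were higher by the same sizes in all tissues, with 0.294 from the product: Adra1a, Cited2, Ifi203-ps, Kitl, Nxpe4 and P2ry1. Without CLP vehicle mouse 2, 30 genes met the rule for lower genes (0.787 from the product) and 0 the rule for higher genes (0.0331 from the product).

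For most members the size of the fall in the organs rested on this 1 mouse. It had the highest level of the 3 vehicle hearts for 53 of the 56 members (94.6%; over all 10031 genes, 71.1%) and of the 3 vehicle lungs for 47 (83.9%; over all genes, 28.3%). The median log2 ratio of the members was -1.58 in peritoneal cells, -1.23 in heart and -0.87 in lung, and without this mouse it was -0.65 in heart and -0.42 in lung. The medians over all genes were 0.01, -0.13 and 0.13, and -0.00 in heart and 0.02 in lung without it. With the mouse left out, 54 members were still below 0 in heart and 50 in lung, and 18 of the 56 still met the whole rule. Of the other 38, 5 had a mean under 1 CPM in some tissue once it was gone.

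**Figure D1:**
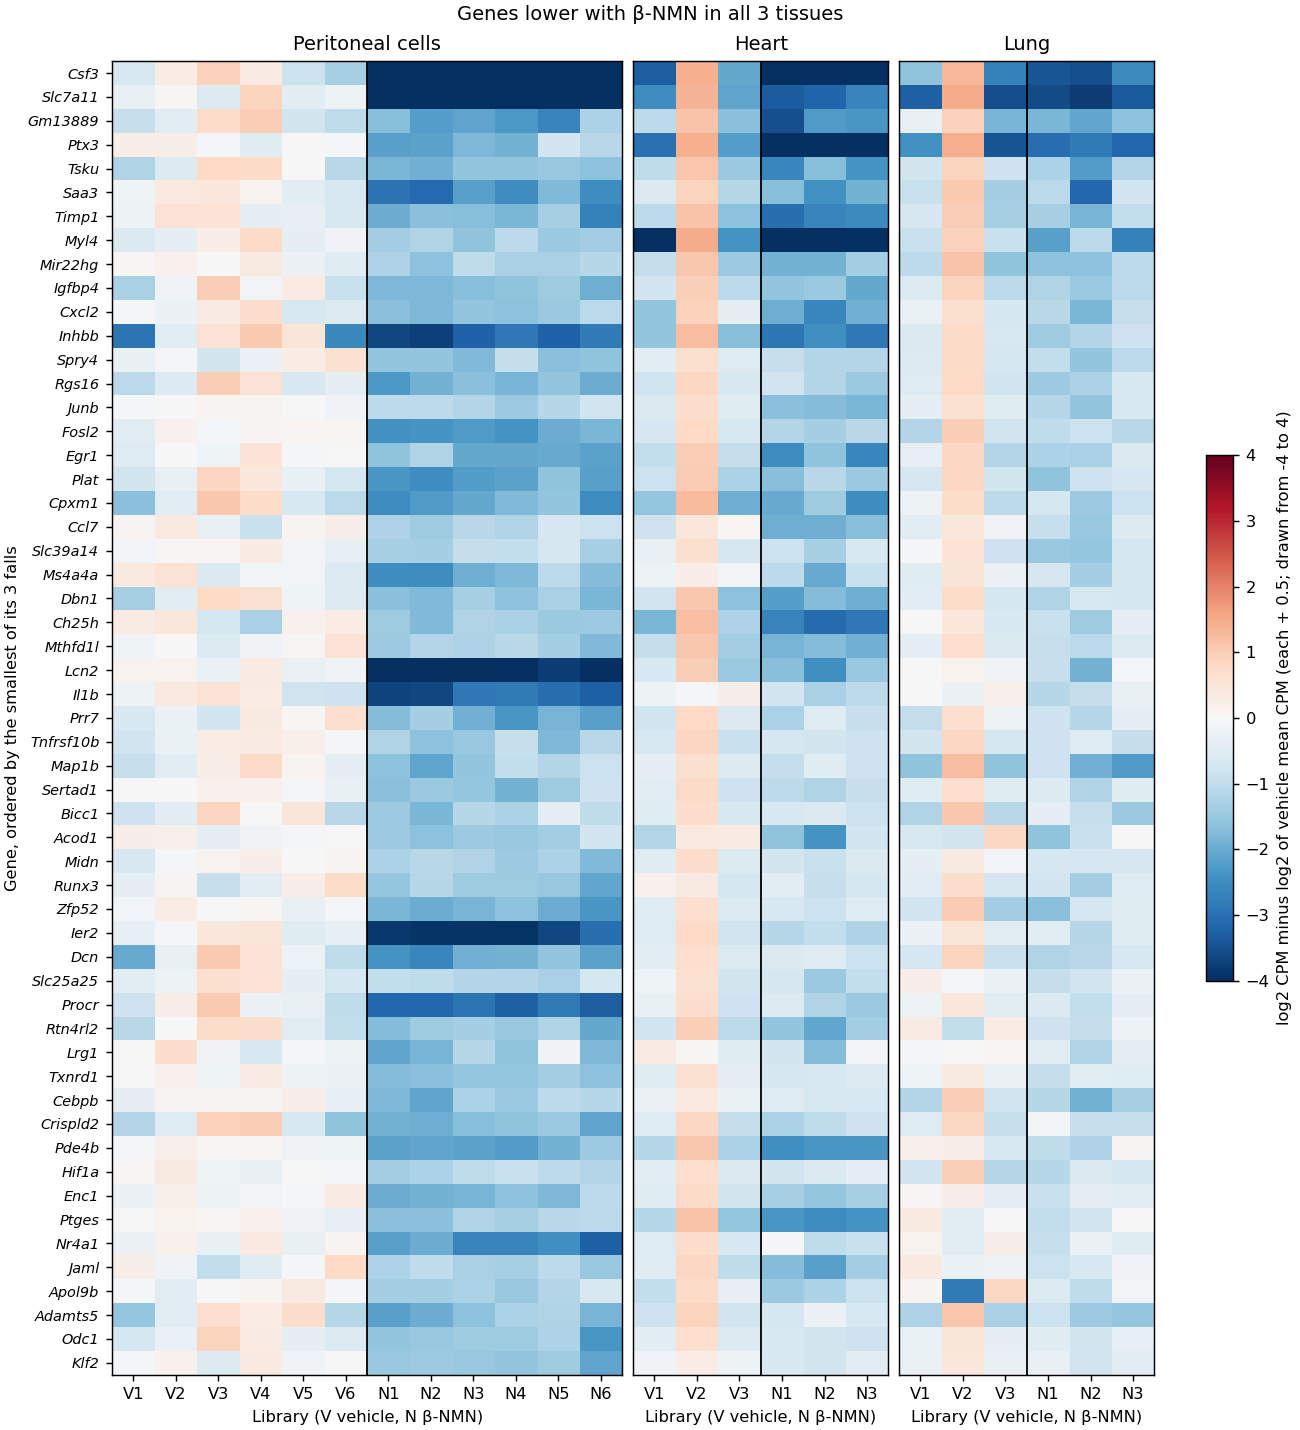
Heat map of 55 of the 56 genes (rows, ordered by the smallest of their 3 falls) in every library (columns; V vehicle, N β-NMN, with replicate number). Colour is log2 CPM minus log2 of the tissue's mean vehicle CPM, each with 0.5 added, drawn from -4 to 4; all 12 peritoneal libraries fall by treatment group, whereas vehicle 2 holds most of the red in heart and lung.

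As a mean of log2(CPM + 0.5) over the 56 genes, the vehicle peritoneal libraries lay at 5.33 to 6.01 and the β-NMN libraries at 3.71 to 4.12, without overlap. The hearts of vehicle mice 1, 2 and 3 lay at 4.21, 5.88 and 4.19 and those of β-NMN mice at 3.49, 3.43 and 3.48. The lungs lay at 5.12, 6.19 and 4.93 with vehicle and 4.53, 4.34 and 4.83 with β-NMN. Vehicle hearts 1 and 3 thus sat above all β-NMN hearts, and vehicle lungs 1 and 3 sat above the β-NMN lungs by a small margin.

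**Figure D2:**
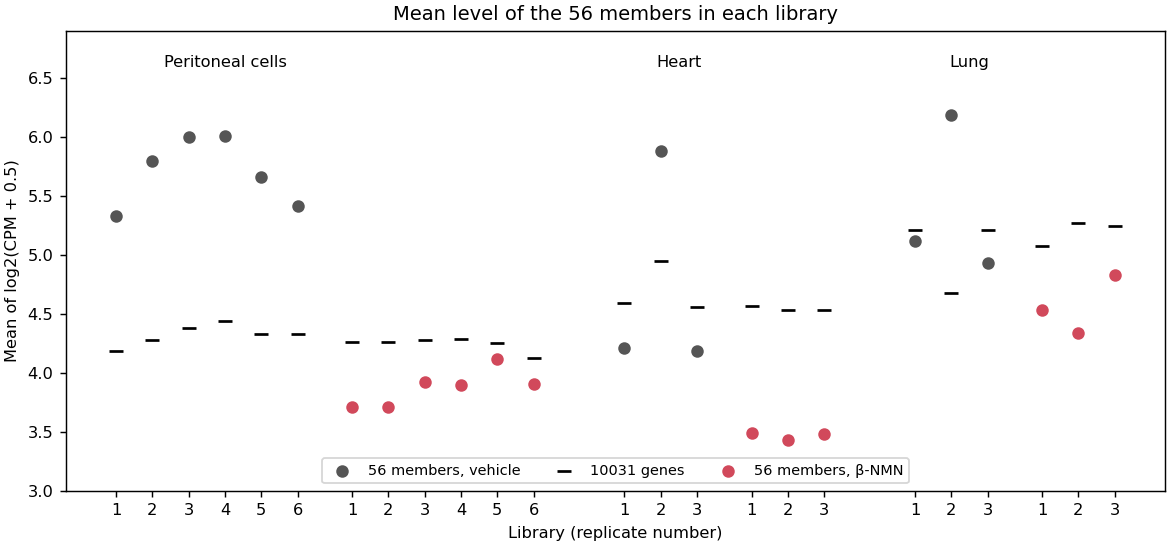
Mean of log2(CPM + 0.5) of the 56 members (points) and of all 10031 genes (dashes) in each library, by replicate number within tissue and treatment. Vehicle libraries of peritoneal cells lie at 5.33 to 6.01 and β-NMN libraries at 3.71 to 4.12; vehicle 2 is the highest library in heart (5.88) and in lung (6.19).

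Every β-NMN library was below every vehicle library for 45 members in peritoneal cells (16.6% of the 10031 genes did this), 33 in heart (14.0%) and 16 in lung (1.59%). In all 3 tissues at once this held for 11 members (0.289%): Tsku, Cxcl2, Spry4, Junb, Ms4a4a, Il1b, Midn, Ier2, Txnrd1, Enc1 and Klf2. With edgeR's quasi-likelihood test at an adjusted p below 0.05, 56 of 56 members were called lower in peritoneal cells (27.9% of all genes tested were), and 56 passed an unadjusted p below 0.05 (30.8%). In heart and in lung 0 members and 0.0% of all genes were called lower by this test. At an unadjusted p below 0.05 it passed 37 members in heart (7.63% of all genes) and 23 in lung (1.28%), and DESeq2 at an adjusted p below 0.05 passed 22 of 55 members with a value in heart (1.63%) and 0 of 53 in lung (0.0153%). Without the heart of vehicle mouse 2, edgeR called 2 members lower in heart, Junb and Pde4b (0.0296% of the genes tested in that fit).

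Before the values by role, the promoters of 4 of the members that fell most are shown. They were picked because each holds a match to a motif of the factors named above. Tsku, Timp1, Myl4, Mir22hg, Igfbp4 and Inhbb are also among the 12 members with the largest fall where they fell least. Their promoter entries hold no NF-kappaB, AP-1 or C/EBP match. Cxcl2 encodes a chemokine that draws neutrophils, Ptx3 the long pentraxin, a soluble pattern recognition protein, Saa3 an acute phase serum amyloid A made outside the liver, and Slc7a11 the transport subunit of the cystine-glutamate exchanger. Each line holds the 250 bases before the RefSeq start in GRCm38.p6, 5′ to 3′ on the gene's strand, and capitals mark matches to the NF-kappaB motif (Cxcl2), the C/EBP motif TTGCNNAA (Ptx3, Saa3 and the leftmost match of Slc7a11) or the C/EBP-ATF motif TGATGNAA (the other matches of Slc7a11).
Cxcl2, chr5:90903649-90903898, plus strand: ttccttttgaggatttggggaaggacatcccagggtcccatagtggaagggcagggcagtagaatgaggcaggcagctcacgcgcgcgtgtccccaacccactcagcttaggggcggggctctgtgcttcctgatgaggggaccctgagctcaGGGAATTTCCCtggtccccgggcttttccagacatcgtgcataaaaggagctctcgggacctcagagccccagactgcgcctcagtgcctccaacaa
Ptx3, chr3:66219637-66219886, plus strand: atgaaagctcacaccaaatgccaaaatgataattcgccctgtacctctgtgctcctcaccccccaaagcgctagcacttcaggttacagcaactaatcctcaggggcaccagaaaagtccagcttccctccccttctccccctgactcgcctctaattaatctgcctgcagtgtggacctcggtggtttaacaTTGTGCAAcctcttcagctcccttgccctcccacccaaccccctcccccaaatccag
Saa3, chr7:46715677-46715926, minus strand: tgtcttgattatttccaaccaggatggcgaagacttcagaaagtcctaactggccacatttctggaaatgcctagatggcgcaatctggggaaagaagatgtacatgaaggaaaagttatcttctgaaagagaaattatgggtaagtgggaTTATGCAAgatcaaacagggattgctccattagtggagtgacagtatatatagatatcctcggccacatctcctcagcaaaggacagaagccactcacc
Slc7a11, chr3:50443614-50443863, minus strand: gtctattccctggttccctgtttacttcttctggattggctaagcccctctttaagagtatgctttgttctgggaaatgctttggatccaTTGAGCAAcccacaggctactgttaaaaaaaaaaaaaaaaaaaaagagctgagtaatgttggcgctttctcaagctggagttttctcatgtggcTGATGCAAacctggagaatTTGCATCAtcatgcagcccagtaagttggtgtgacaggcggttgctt
In Cxcl2 the NF-kappaB match lies 97 to 87 bases before the start, and in Ptx3 a match of the same motif spans the start itself and so is not in the stretch shown.

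Motifs were searched on both strands from 250 bases before to 50 after the start in the 42 members with a promoter entry. The NF-kappaB motif was in 7 members (16.7%), against 6.37% of the 7928 genes with an entry and a mean CPM of at least 1 in all tissues and 5.14% of all 27025 genes with an entry. Its members were Ptx3, Cxcl2, Fosl2, Ms4a4a, Rtn4rl2, Pde4b and Nr4a1. The C/EBP motif TTGCNNAA, which can overlap the C/EBP-ATF motif, was also in 7 members (16.7%; 10.0% and 12.2%): Slc7a11, Ptx3, Saa3, Ch25h, Lcn2, Slc25a25 and Procr. TATAAA was in 9 members (21.4%; 8.31% and 15.7%), and TGATGNAA in Slc7a11 alone (2.38%; 2.88% and 4.51%). The AP-1 motif TGANTCA was in 2 members (4.76%; 6.03% and 8.97%), the antioxidant motif TGACNNNGC in 8 (19.0%; 17.2% and 14.0%) and the hypoxia motif ACGTG in 12 (28.6%; 30.5% and 21.8%). The cAMP motif TGACGTCA was in 2 members (4.76%; 3.78% and 2.03%), TTCNNNGAA, the STAT motif, in 3 (7.14%; 8.10% and 9.55%), and the serum response motif in 0 (0.0%; 1.53% and 1.81%). A match is a stretch of letters and was not tested as a site.

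Cytokines and chemokines contributed Csf3, Il1b, Cxcl2 and Ccl7. Csf3 encodes granulocyte colony-stimulating factor, which drives neutrophil production. The smallest of its 3 falls was larger than that of any other member. In peritoneal cells it lay at 77.5 to 377 CPM with vehicle (median 185) and 1.72 to 4.93 with β-NMN (median 3.56). In heart it was at 0.571, 27.6 and 2.04 CPM in vehicle mice 1 to 3 and 0, 0.0701 and 0.117 in β-NMN mice. In lung it was at 1.66, 16.3 and 0.521 CPM with vehicle and 0.12, 0.0839 and 0.639 with β-NMN. The groups did not overlap in peritoneal cells or heart, whereas 1 β-NMN lung was above vehicle lung 3, and vehicle mouse 2 was far above the rest in both organs. The log2 ratios were -5.70, -4.23 and -3.09, and -1.68 in heart and -1.03 in lung without that mouse. In bulk tissue, a lower level can come from fewer cells of a type or from less RNA per cell, and these cannot be told apart here.

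Il1b, the gene of interleukin 1β, had its highest organ levels in vehicle mouse 3, not in vehicle mouse 2. Peritoneal cells held 1416 to 3648 CPM with vehicle (median 2617) and 191 to 348 with β-NMN (median 284). Hearts held 1.67, 1.89 and 2.42 CPM with vehicle and 0.952, 0.525 and 0.715 with β-NMN, and lungs 12.9, 11 and 15.2 with vehicle and 5.70, 6.5 and 10.4 with β-NMN. In each tissue every β-NMN sample was below every vehicle sample, with log2 ratios of -3.18, -1.02 and -0.75, and without vehicle mouse 2 the ratios were -1.05 in heart and -0.86 in lung.

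Cxcl2, shown above with its NF-kappaB match, had the highest vehicle level per kb of exon of the 56 members in peritoneal cells, 2879 CPM per kb. It lay there at 3841 to 9636 CPM with vehicle (median 5375) and 1710 to 2795 with β-NMN (median 1961). Hearts had 1.38, 10.1 and 3.77 CPM with vehicle and 0.952, 0.42 and 0.978 with β-NMN, and lungs 3.91, 7.74 and 2.78 against 1.98, 1.01 and 2.32. No group overlapped in any tissue (ratios -1.52, -2.13 and -1.23; -1.26 in heart and -0.76 in lung without vehicle mouse 2). Ccl7, which attracts monocytes, overlapped between groups only in peritoneal cells (231 to 566 CPM with vehicle, 159 to 270 with β-NMN), and its organ ratios of -1.86 and -0.94 were -1.56 and -0.66 without that mouse.

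Beside these genes, the wider lists moved as follows in peritoneal cells by edgeR at an adjusted p below 0.05. Of 41 cytokine genes tested, 28 were lower and 7 higher, with a median log2 fold change of -1.07. Over all tested genes 27.9% were lower and 23.7% higher, and the median was -0.02. Of 28 chemokine genes, 12 were lower and 4 higher (median -0.53), and of 30 genes of NF-kappaB subunits and feedback regulators, none of which is a member, 24 were lower and 2 higher (median -0.75). Of 32 type I interferon response genes, also without a member, 1 was lower and 8 were higher (median 0.16). In the organs, the medians of that list were -0.49 in heart and -0.53 in lung, where all tested genes had -0.01 and 0.0, and those of the cytokine list were -0.63 and -0.15.

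Neutrophil markers moved with some of these genes in 2 of the tissues. The summed CPM of 10 neutrophil markers was 548 to 988 with vehicle and 361 to 467 with β-NMN in peritoneal cells (8 of 10 markers lower) and 28.0 to 46.4 against 17.3 to 20.2 in heart (10 of 10 lower), without overlap. In lung it was 1374 to 3265 against 1882 to 2906 (3 of 10 lower). No marker of the list was at 0 in all libraries of a tissue. The sum of 5 natural killer cell markers in peritoneal cells was 48.4 to 240 CPM with vehicle and 13.5 to 36.9 with β-NMN (5 of 5 lower), and that of 5 platelet markers in heart was 12.4 to 36.1 against 6.89 to 11.9 (4 of 5 lower), also without overlap. The sum of 5 erythroid markers in peritoneal cells was higher with β-NMN, 46.6 to 139 against 2.94 to 37.4 (0 of 5 lower). The part of these cells in the lower cytokine and acute phase genes was not tested.

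The acute phase and antimicrobial members were Saa3, Lcn2 and Acod1, with Ptx3 and Lrg1 of related roles. Saa3 was at 2571 to 5331 CPM in vehicle peritoneal cells (median 3951) and 457 to 1177 with β-NMN (median 712). Its levels were 732, 2028 and 492 CPM in vehicle hearts and 330, 202 and 294 in β-NMN hearts, and 2105, 8000 and 1492 in vehicle lungs and 1824, 436 and 2269 in β-NMN lungs. Heart groups did not overlap, but lung groups did, and the lung ratio of -1.36 was -0.25 without vehicle mouse 2. Saa3 was the member with the highest vehicle level per kb of exon in lung, 1483 CPM per kb with all mice and 690 without that mouse.

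Lcn2 encodes lipocalin 2, which withholds iron from bacteria by binding their siderophores. Its peritoneal levels were 333 to 503 CPM with vehicle (median 401) and 8.71 to 28.8 with β-NMN (median 16.6), a log2 ratio of -4.53. Vehicle hearts had 728, 2184 and 397 CPM and β-NMN hearts 336, 201 and 389, while vehicle lungs had 1548, 1739 and 1440 and β-NMN lungs 829, 423 and 1521. The heart groups were apart by a narrow gap, and β-NMN lung 3 reached the vehicle range. Acod1, whose enzyme makes itaconate from an intermediate of the citric acid cycle, was at 5203 ± 792 CPM with vehicle and 2063 ± 520 with β-NMN (SD, n = 6 each) in peritoneal cells. Its levels in the organs were low, 0.916 to 3.70 CPM in vehicle hearts and 0.105 to 1.39 in β-NMN hearts, and the groups overlapped in both organs.

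Ptx3 had its largest fall in heart. It was at 8.41, 188 and 14.8 CPM in vehicle hearts and 0.988, 1.94 and 1.46 in β-NMN hearts, and at 1.66, 31.3 and 0.565 in vehicle lungs and 0.901, 1.13 and 0.838 in β-NMN lungs. The heart groups did not overlap and the ratio of -5.17 was -2.62 without vehicle mouse 2, whereas the lung ratio went from -3.00 to -0.14. Lrg1, a leucine-rich glycoprotein of the acute phase, was the member with the highest vehicle level per kb in heart (943 CPM per kb). Its lung groups did not overlap (336, 354 and 377 CPM with vehicle; 260, 155 and 276 with β-NMN), and its organ ratios of -0.72 and -0.63 were nearly the same without that mouse, -0.70 and -0.63. Of 27 acute phase and antimicrobial genes tested in peritoneal cells, 20 were called lower and 3 higher (27.9% and 23.7% of all tested genes; median log2 fold change -1.75).

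Ptges, the inducible prostaglandin E synthase, was also a member. It was at 1037 to 1452 CPM in vehicle peritoneal cells (median 1353) and 404 to 612 with β-NMN (median 541). Hearts had 4.35, 23.2 and 3.17 CPM with vehicle and 1.65, 1.40 and 1.56 with β-NMN. No peritoneal or heart sample overlapped between groups, and the heart ratio of -2.40 was -1.06 without vehicle mouse 2. In lung the groups overlapped (46.7, 26.8 and 36.4 CPM with vehicle, 18.1, 21.3 and 36.0 with β-NMN), with a ratio of -0.53 close to the threshold.

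**Figure D3:**
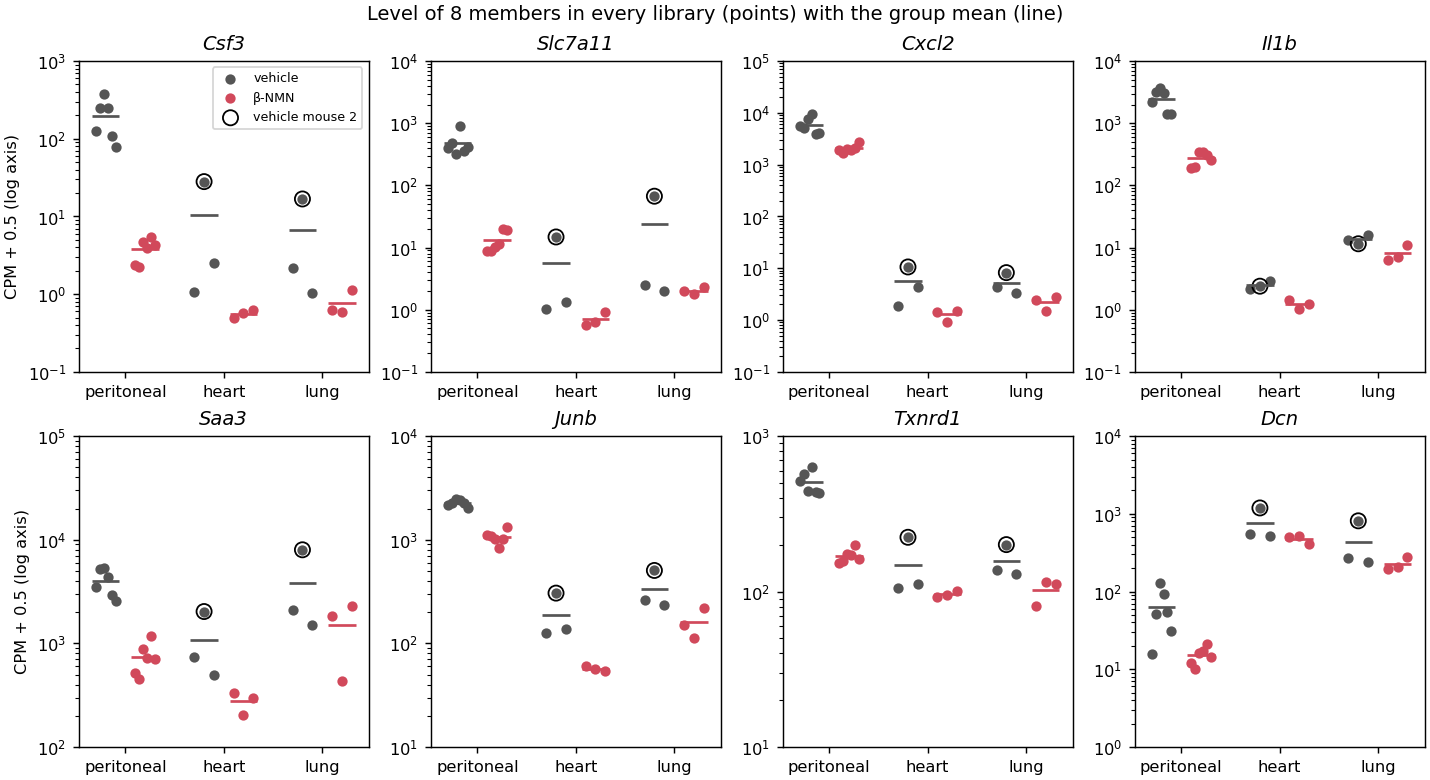
CPM plus 0.5 on a log axis in every library for 8 members, with group means as lines, vehicle in grey and β-NMN in red; rings mark CLP vehicle mouse 2. Il1b is apart between groups in every tissue with the ringed mouse inside its group, whereas for Csf3 and Slc7a11 the ringed mouse lies far above the other vehicle organs.

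Immediate early transcription factors, which are switched on within minutes of a stimulus without new protein synthesis, gave Junb, Fosl2, Egr1, Ier2, Nr4a1 and Klf2. Junb, an AP-1 subunit, was at 2040 to 2452 CPM in vehicle peritoneal cells (median 2267) and 823 to 1320 with β-NMN (median 1054). Hearts had 126, 305 and 136 CPM with vehicle and 59.6, 56.6 and 53.0 with β-NMN, and lungs 260, 505 and 236 against 151, 111 and 220. The groups did not overlap in any tissue, and without vehicle mouse 2 the organ ratios of -1.73 and -1.05 became -1.21 and -0.62. A stretch of 7.52% of the exon length of Junb overlaps Prdx2 on the opposite strand, whose reads cannot be told apart without strand.

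Ier2 had the largest peritoneal fall of this list, from 82.4 to 161 CPM (median 101) with vehicle to 7.10 to 13.8 (median 7.31) with β-NMN, a log2 ratio of -3.67. Its lungs held 123, 204 and 108 CPM with vehicle and 107, 65.0 and 104 with β-NMN, so the groups were apart by 1 CPM or so. Klf2, a transcription factor of endothelium and resting leukocytes, stood at the edge of the rule in lung with a ratio of -0.502. Without vehicle mouse 2, Ier2 had ratios of -0.45 in heart and -0.32 in lung, and Klf2 -0.42 and -0.23. Nr4a1, an orphan nuclear receptor, went from 390 ± 79.2 to 69.8 ± 20.4 CPM (SD, n = 6 each) in peritoneal cells, but its heart ratio of -0.58 was -0.02 without that mouse. Its lung ratio went the other way, from -0.52 to -0.70 without that mouse. Egr1, a zinc finger factor, went from -2.16 in heart and -1.0 in lung to -1.20 and -0.30 without it, and Fosl2, another AP-1 subunit, from -1.21 and -1.0 to -0.56 and -0.04. Of 40 genes on the immediate early list, 32 were called lower and 3 higher in peritoneal cells (27.9% and 23.7% of all tested genes; median log2 fold change -1.23).

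Feedback and signalling genes were Spry4, an inhibitor of receptor tyrosine kinase signalling, Rgs16, which shortens G protein signals, and Pde4b, which breaks down cAMP. Spry4 was at 0.966 to 3.20 CPM with vehicle and 0.220 to 0.748 with β-NMN in peritoneal cells. Its hearts held 17.1, 36.0 and 16 CPM against 11.9, 9.90 and 10.0, and its lungs 46.0, 116 and 41.2 against 34.2, 22.2 and 31.8. All 3 tissues were free of overlap. Pde4b had heart levels of 54.3, 254 and 49.5 CPM with vehicle and 21.6, 23.6 and 23.3 with β-NMN, but in lung (138, 142 and 76.0 against 58.5, 50.4 and 129) the groups overlapped. Inhbb, a subunit of activin B, was the 1 growth factor on the lists, with hearts at 17.9, 129 and 16.2 CPM against 6.88, 9.62 and 7.06, and with overlap only in peritoneal cells (0.578 to 16.1 against 0.110 to 0.661 CPM).

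Stress and metal genes were Slc7a11, Cebpb, Txnrd1, Slc39a14 and Hif1a. Slc7a11 was at 324 to 890 CPM in vehicle peritoneal cells (median 401) and 8.27 to 19.2 with β-NMN (median 10.2), a log2 ratio of -5.19. Hearts had 0.525, 14.3 and 0.826 CPM with vehicle and 0.0732, 0.123 and 0.409 with β-NMN, and lungs 1.97, 66.5 and 1.52 against 1.5, 1.26 and 1.80. The heart groups did not overlap. The lung fall rested on vehicle mouse 2, as did much of the size of the heart fall. The heart ratio of -3.03 was -0.75 without it, and the lung ratio of -3.56 was -0.15, with the other vehicle lungs in or just above the β-NMN range.

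Txnrd1, cytosolic thioredoxin reductase, had no overlap in any tissue. It was at 432 to 635 CPM with vehicle and 152 to 198 with β-NMN in peritoneal cells, at 105, 223 and 112 against 91.3, 94.8 and 101 in heart, and at 138, 200 and 129 against 80.5, 115 and 111 in lung. Without vehicle mouse 2 its organ ratios of -0.62 and -0.61 were -0.19 and -0.38, so separate groups did not mean a large difference. Slc39a14, a zinc and iron importer, had ratios of -1.09, -0.91 and -1.19, and -0.43 and -0.81 in heart and lung without that mouse. Cebpb, a C/EBP factor of myeloid cells, had -1.42, -0.60 and -1.42, and -0.36 and -0.47 without it. A share of 20.7% of Cebpb's exon length overlaps Tmem189 on the opposite strand. Hif1a, the oxygen-regulated subunit of hypoxia-inducible factor, went to -0.07 in heart and 0.14 in lung without the mouse. Of 20 metal and oxidative stress genes tested in peritoneal cells, 14 were called lower and 6 higher (median -1.0), and of 23 genes of the integrated stress response 19 were lower and 0 higher (median -0.96). Of 30 glycolysis and hypoxia genes, the list of Hif1a, 9 were lower and 3 higher (median -0.22). The shares over all tested genes were 27.9% lower and 23.7% higher.

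Matrix, protease and stromal members were Timp1, Plat, Adamts5, Dcn, Igfbp4, Cpxm1 and Crispld2. Timp1, an inhibitor of matrix metalloproteinases, was at 137 to 319 CPM with vehicle and 32.3 to 85.9 with β-NMN in peritoneal cells. Hearts held 27.3, 126 and 17.8 CPM against 6.55, 8.77 and 9.34, and lungs 48.5, 154 and 30.5 against 30.5, 21.1 and 39.0. Heart groups were apart, lung groups were not, and without vehicle mouse 2 the ratios of -2.72 and -1.35 were -1.40 and -0.38. Plat, the tissue plasminogen activator, went from -1.40 and -0.98 to -0.35 and -0.27, and Adamts5, an aggrecan-cleaving protease, from -0.51 and -1.26 to 0.29 and 0.01. Dcn, the collagen-binding proteoglycan decorin, went from -0.65 and -0.96 to -0.16 and -0.17. Igfbp4, which binds insulin-like growth factors, went from -1.68 and -1.24 to -0.77 and -0.44. Of 33 protease, matrix and coagulation genes tested in peritoneal cells, 14 were called lower and 11 higher (27.9% and 23.7% of all tested genes; median -0.27).

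Fibroblast markers were lower with β-NMN in peritoneal cells, whereas their sums overlapped between groups in heart and lung. The summed CPM of 6 fibroblast markers, Dcn among them, was 105 to 1222 in vehicle peritoneal cells and 23.0 to 100 with β-NMN, with 6 of 6 lower and no overlap. In heart the sum was 2678 in vehicle mouse 2 and 835 to 1286 in the other mice. The same heart had 123 CPM of mesothelial markers, against 5.82 to 13.2 in the other hearts, and 72.9 of B cell markers, against 1.05 to 4.5. Its mast cell markers were at 19.1 CPM, against 1.84 to 3.21 in the other hearts. In lung the fibroblast sum was 1242 to 1720 with vehicle, lowest in vehicle mouse 2, and 945 to 1392 with β-NMN (4 of 6 lower). The part of these cells in the members' values was not tested.

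Myl4, the atrial and fetal essential light chain of myosin, is a further member whose heart value sat with vehicle mouse 2. Hearts held 8.18, 3334 and 225 CPM with vehicle and 48.0, 19.9 and 1.17 with β-NMN. Vehicle heart 1 was below a pair of β-NMN hearts, so the groups overlapped. Other atrial genes, chosen here after their values were seen, followed it: Myl7 was at 4.95, 2593 and 181 CPM with vehicle and 42.5, 15.5 and 0.131 with β-NMN. Sln was at 1.31, 987 and 115 against 21.1, 5.22 and 0.0584, and Nppa at 16, 4923 and 586 against 99.0, 78.5 and 39.5. Vehicle hearts 2 and 3 were the highest for each of these genes. Whether the pieces of heart differed in their share of atrium was not tested. In lung Myl4 was at 46.6, 165 and 46.7 CPM with vehicle and 18.6, 40.5 and 12.8 with β-NMN, without overlap. The summed CPM of 7 cardiomyocyte markers in lung was 266 to 324 with vehicle, highest in vehicle mouse 2, and 81.4 to 269 with β-NMN (6 of 7 lower), and its part in this value was not tested.

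The members on none of the lists numbered 28, and 1 of them, Gm13889, is a predicted gene. Gm13889 (chr2:93955810-93957201, minus strand, mm10) had ratios of -1.98, -2.60 and -1.84, and -1.29 and -0.97 in heart and lung without vehicle mouse 2, with overlap only in lung. Tsku, a secreted proteoglycan that binds growth factors, was free of overlap in all tissues, with lungs at 44.8, 139 and 42.6 CPM against 31.4, 15.8 and 33.3. Ms4a4a, a membrane protein of macrophages, was likewise apart in all tissues: hearts held 18.3, 25.6 and 19.6 CPM against 9.88, 4.87 and 11.1, and lungs 10.9, 22.3 and 12.9 against 9.55, 5.75 and 9.30. Ms4a4a did not rest on vehicle mouse 2 alone, with -1.09 and -0.51 without it. Midn and Enc1, the other members apart everywhere without a list, had -0.21 and -0.78 in heart and -0.46 and -0.41 in lung without it. Mir22hg, the host transcript of a microRNA, had -0.49 and -0.10. Apol9b is 1 of a pair of near-identical apolipoprotein L genes, so its count is uncertain.

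**Figure D4:**
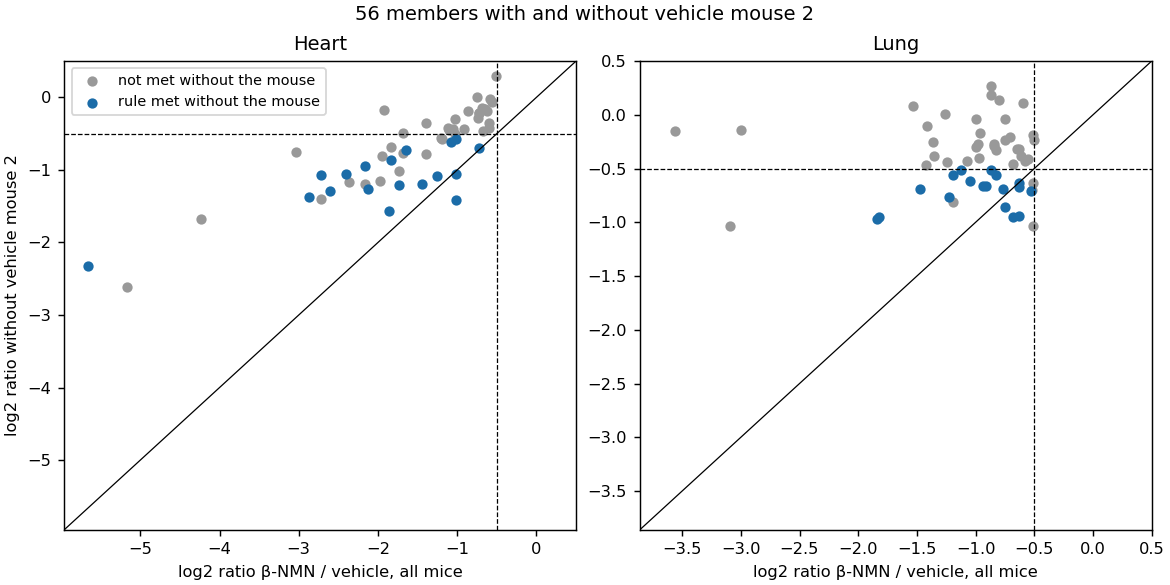
Log2 ratio of β-NMN to vehicle for each of the 56 members in heart and lung with all mice (x axis) and without CLP vehicle mouse 2 (y axis). Blue points are the 18 members that met the whole rule without the mouse, dashed lines are the thresholds of -0.5 and the solid line is equality; most points lie above the solid line, with medians of -0.65 in heart and -0.42 in lung without the mouse.

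The 18 members that met the rule without vehicle mouse 2 included Gm13889, Tsku, Myl4, Cxcl2, Inhbb, Spry4, Junb, Ccl7, Ms4a4a, Ch25h, Lcn2, Il1b, Acod1, Slc25a25, Rtn4rl2, Lrg1 and Ptges. Ch25h, whose enzyme makes the antiviral oxysterol 25-hydroxycholesterol, had ratios of -1.42, -2.87 and -0.83, and -1.37 and -0.56 in heart and lung without the mouse.

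Near the thresholds, the members closest inside in peritoneal cells were Slc39a14 (-1.09), Ccl7 (-1.063) and Slc25a25 (-1.039), and Fam217b (-0.997), Msrb1 (-0.991) and Bhlhe40 (-0.972) were closest outside. In heart Nr4a1 (-0.58), Hif1a (-0.557) and Adamts5 (-0.511) were inside and Tshz1 (-0.459), Psd (-0.441) and Chd7 (-0.439) outside. In lung Apol9b (-0.512), Odc1 (-0.507) and Klf2 (-0.502) were inside, and Ikzf4 (-0.496), Lif (-0.482) and Socs3 (-0.457), the last 2 a cytokine and a feedback inhibitor of the same program, were outside. At 17 members the ratio was -1 or lower in every tissue.

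The difference between organs within a mouse was not used to choose the genes and could be tested. With edgeR's quasi-likelihood test over 6 mice and the mouse as a block, 25 members were higher in lung than in heart (34.6% of the 18318 genes tested were) and 14 were higher in heart (29.2%). The members' median log2 level of lung over heart was 0.48, against 0.10 over all genes tested. Unlike the members, those 18318 genes were not limited to a mean of at least 1 CPM in all 3 tissues. Tsku was higher in lung by a log2 value of 2.63 (adjusted p = 9.33e-05), Ptges by 2.55 (0.00104) and Il1b by 2.36 (3.95e-05), each in 6 of 6 mice. Ptx3 had -2.58 (adjusted p = 0.00291), Lrg1 -2.46 (1.49e-05) and Slc39a14 -2.35 (9.89e-06), and each was higher in heart in 6 of 6 mice. Among acute phase genes Saa3 was higher in lung by 1.26 (adjusted p = 0.00459), while Lcn2 and Acod1, both at 0.49, were not past the threshold (adjusted p = 0.0946 and 0.374). Among immediate early genes Ier2 was higher in lung by 1.69 (adjusted p = 3.27e-05) and Klf2 by 1.10 (0.000506), each in 6 of 6 mice. Nr4a1 had -0.73 (adjusted p = 0.0335) and Txnrd1 -0.57 (0.00466) in this fit, which used TMM scaling. By CPM over the column total, on which mice were counted here, both were higher in lung in 4 of 6 mice. Mice were not counted on the TMM scale. Without vehicle mouse 2, 24 members were higher in lung (38.8% of the genes tested in that fit) and 17 in heart (37.2%).

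**Figure D5:**
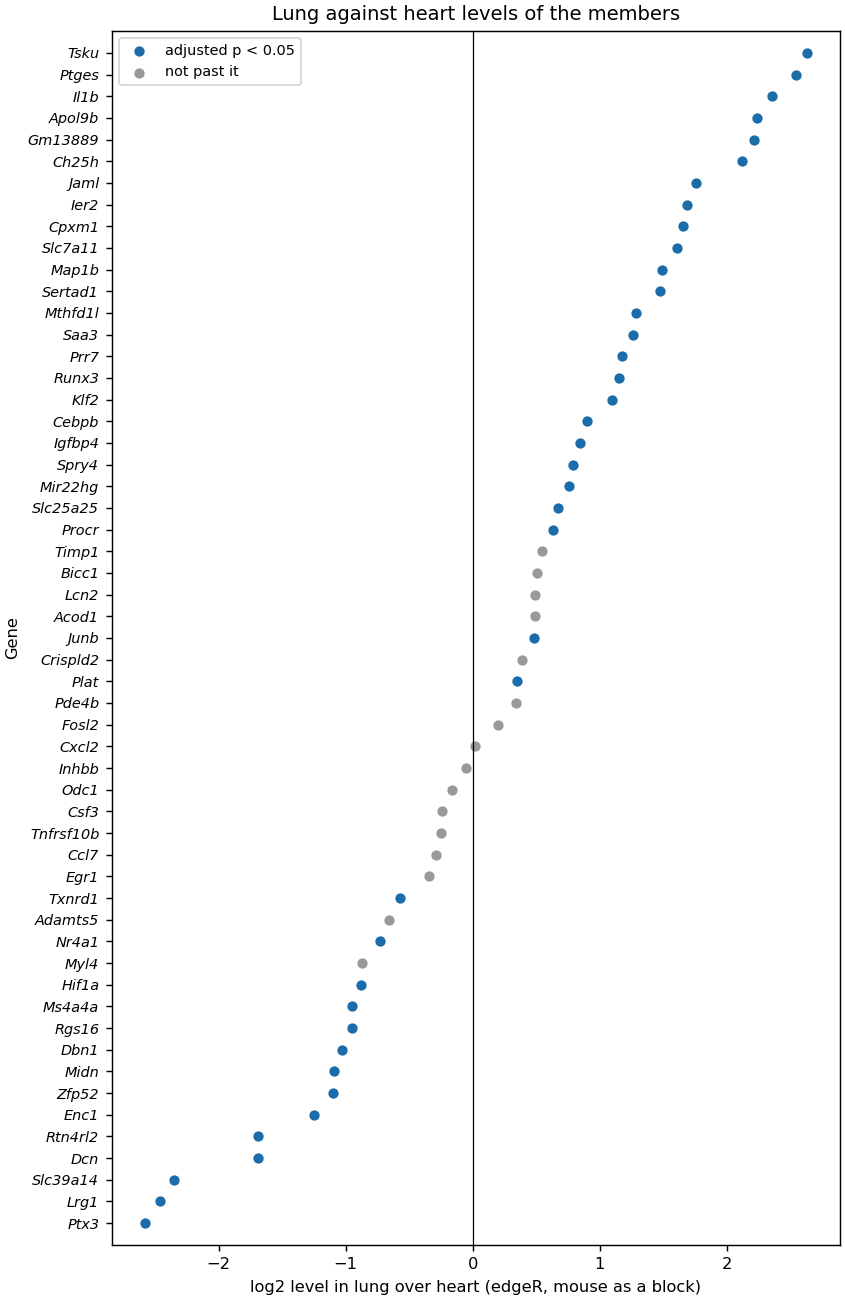
Log2 level in lung over heart of 55 of the 56 members from edgeR over 6 mice with the mouse as a block; blue points have an adjusted p below 0.05 and the vertical line is equal level. The range runs from -2.58 (Ptx3) to 2.63 (Tsku), with 25 members higher in lung and 14 higher in heart.

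Peritoneal libraries fell into a deeper set of 3 vehicle and 2 β-NMN libraries, over 70 M counts, and a shallower set of 3 and 4. This split was added after the data were seen, and since the members were chosen on these same libraries its values are a description only. Within the deeper set 55 of the 56 members had a ratio of at most -1 (median -1.74), and within the shallower set 52 had (median -1.51). All 56 were below 0 in both sets.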

How the data were processed

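RNA was sequenced from 24 libraries. The deposited values were raw read counts per gene symbol, which the authors made by mapping to mm10 with STAR (2.7.3a in the submitters' processing notes) and counting with featureCounts 2.0.0; the sources used here name neither the annotation nor whether strand was used. CPM was taken over the column total, and a pseudocount of 0.5 CPM was added to each group mean. Tissues were fitted separately in edgeR 4.0.16 (R 4.3.3). TMM, estimateDisp and the quasi-likelihood test are named in the authors' methods; filterByExpr, the older (legacy) form of the test and Benjamini-Hochberg adjustment over all genes tested were chosen here. Lung against heart was fitted over 12 libraries with the mouse as a block. DESeq2 1.42.0, other scalings, filters and pseudocounts, the replicate block and leaving out each library or mouse were alternatives. The fits were also run on simulated counts with planted changes. Those counts had the same spread setting for every gene and no outlying library, unlike the organs here. Gene positions came from GENCODE M21 and promoters from RefSeq (GRCm38.p6).

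The members and the gene lists were chosen with earlier results of these data known. Named were the 12 members with the largest smallest fall, members on a list or without overlap in all tissues, the 3 highest per tissue and those nearest each threshold; others named outside it were chosen after their values were seen. Whether libraries of a group were separate cultures was judged only from the labels, which name separate mice. Replicate numbers do not pair vehicle with β-NMN mice. 1 member is not reported here.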

Additional observations from a re-analysis of the deposited data

Results flagged for a closer look

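Among 112 groups of 6 peritoneal libraries, 9 held a sample whose gap to its nearest neighbour took more of the group's range than Dixon's 95% limit for 6 samples allows. Gaps and ranges were taken on log2(CPM + 0.5), while the levels below are in CPM. Chance gives about 1 group in 20. In β-NMN library 6, Acod1 was high (gap share 0.726; 3100 CPM against 1680 to 1990), as were Ier2 (0.665; 13.8 against 7.10 to 8.89) and Enc1 (0.632; 10.2 against 5.09 to 6.59), while Klf2 (0.751; 18.5 against 26.6 to 30.0) and Odc1 (0.670; 57.6 against 96.6 to 125) were low. In vehicle library 1, Fosl2 (0.633; 545 against 704 to 817) and Midn (0.649; 20.1 against 30.3 to 37.8) were low. Plat was high in β-NMN library 5 (0.626; 5.00 against 2.51 to 3.27) and Spry4 in β-NMN library 4 (0.788; 0.748 against 0.220 to 0.309). The cause was not tested.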

How the results depend on the processing

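The number of genes that met the rule, 56, was 36 with a pseudocount of 2 CPM, 28 with a CPM minimum of 5 and 35 with medians in place of means, and only 25 of those 35 were among the 56. Leaving out 1 library gave 29 to 72 genes. The 29 came without the heart of vehicle mouse 2; without its lung there were 41, of which 22 were among the 56. Leaving out 1 mouse of the CLP experiment gave 30 to 79, and the 30 came without vehicle mouse 2. The cause was not tested. The other alternatives for this number gave 50 to 74, but not always the same genes. With TMM scaling 48 of 69 were among the 56, with DESeq2 size factors 44 of 62. With edgeR's fitted fold changes 49 of 74 were. With TMM the members' medians were -1.57, -1.07 and -1.11 in peritoneal cells, heart and lung, and the median of all genes moved from -0.13 to -0.00 in heart and from 0.13 to 0.00 in lung.

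Members called lower in heart, 0 with edgeR, were 22 with DESeq2 and 0 to 2 without each library in turn (2 without the heart of vehicle mouse 2). The counts of 56 in peritoneal cells and 0 in lung changed under none of their alternatives, which says little about stability. The 56 is the ceiling for genes chosen on these libraries, and in lung edgeR called 0 of all 17008 tested genes lower. With the replicate number as a block the called counts were 56, 0 and 0, and 59 genes met the rule on fitted fold changes, 42 of them among the 56. Same-numbered vehicle and β-NMN samples correlated at -0.17 to 0.13 in peritoneal cells, 0.07 to 0.24 in heart and -0.53 to 0.31 in lung. Among the β-NMN hearts, every vehicle heart correlated best with that of its own number, a hint from the data only. The best vehicle partner of each β-NMN heart was not computed. Without the mouse as a block, 21 members were higher in lung (35.9% of all genes tested) and 10 in heart (29.1%).

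With 3 mice per group in heart and lung, and 8.92 M counts in the shallowest lung, falls of members near 1 CPM rest on few counts.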
